A study of Mus musculus with 16 samples.

Results

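The transcripts of 10 inflammatory cytokine and chemokine genes were examined in mouse granulosa cells (mGCs): the interleukin-1 genes Il1b and Il1a, Il6 and its relative Osm, Tnf, the CXC chemokines Cxcl1 and Cxcl2, and the CC chemokines Ccl2, Ccl3 and Ccl4. They were taken by gene symbol from both count tables of the study, each of which lists 57010 Ensembl genes, and all 10 were present in each. Their rows were picked by name and not by read counts, but the genes were chosen with earlier results of these data known. RNA-seq covered 16 libraries of poly(A) RNA in 2 experiments. In the first, mGCs were isolated from 5 female ICR mice of an endometriosis (EM) model and 5 of a sham surgery (Con) group and sequenced without culture. Mice were 6 weeks old when bought. Those of the EM group had endometrium of estradiol-treated donor mice sutured to the bowel mesentery, and those of the Con group had surgery without an implant. Recipients kept their ovaries and received 17β-estradiol every other day for 14 days with a washout after it, and ovulation was induced at day 30. Whether sham mice received the estradiol is not spelled out in the methods. In the second experiment, mGCs of 6 EM model mice were cultured with 5% serum and then given 100 nM 14,15-EET, an epoxide of arachidonic acid, or an equal volume of PBS for 24 h, with 3 libraries in each arm. The methods describe these as paired biological replicates from cells split between the arms, and do not say which library pairs with which. Every cultured library therefore comes from the EM model, and no cultured Con cells were analysed here. The first experiment asks how mGCs of EM mice differ from those of sham mice, and the second asks what added 14,15-EET changes in them.

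Granulosa cells are the somatic cells that line the ovarian follicle and surround the oocyte. The gonadotropin surge that triggers ovulation sets off a response with many features of inflammation, in which follicle cells make prostaglandins and cytokines and leukocytes gather in the follicle wall. IL-1α and IL-1β act through the same receptor, and IL-1β is made as a precursor that caspase-1 cuts in the inflammasome. IL-6 and oncostatin M both signal through the gp130 chain (Il6st) to JAK kinases and STAT3, while TNF acts through its own receptors to NF-κB. Chemokines draw in leukocytes: CXCL1 and CXCL2 attract neutrophils through CXCR2, CCL2 attracts monocytes through CCR2, and CCL3 and CCL4 act on monocytes and lymphocytes. All 10 are made in large amounts by activated myeloid cells, and several can also be made by stromal and epithelial cells.

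Several of these genes are textbook targets of NF-κB, a factor that inflammatory signals bring to the nucleus, so their promoters were searched for the letters it is known to bind and for those of a few other factors. RefSeq promoter windows of 300 bases, from 250 before to 50 after the annotated start (GRCm38.p6), were found for 7 of the 10 genes, namely Il1b, Il1a, Il6, Tnf, Cxcl1, Cxcl2 and Ccl3. The κB consensus, searched on both strands, matched in 3 of these 7 windows (Il6, Cxcl1 and Cxcl2) and in 8.46% of all 32851 windows of that length. TATAAA, searched on the gene's strand only, matched in 3 others (Il1b, Il1a and Tnf) and in 8.32% of all windows. TGANTCA, the AP-1 letters, matched in 2 windows (Il1a and Il6) against 7.81% of all, and TTNNGNAA, a loose form of the C/EBP letters, in 6 windows against 40.7% of all. None of the 4 motifs overlapped another in these windows. The promoters of the leading gene of each class are printed 5′ to 3′ on the gene's strand, with the κB or TATAAA letters in capitals. The Il1b window lies at chr2:129371090-129371389 on the minus strand, and those of Il6 at chr5:30012864-30013163, Cxcl1 at chr5:90890995-90891294 and Cxcl2 at chr5:90903649-90903948 on the plus strand.
Il1b: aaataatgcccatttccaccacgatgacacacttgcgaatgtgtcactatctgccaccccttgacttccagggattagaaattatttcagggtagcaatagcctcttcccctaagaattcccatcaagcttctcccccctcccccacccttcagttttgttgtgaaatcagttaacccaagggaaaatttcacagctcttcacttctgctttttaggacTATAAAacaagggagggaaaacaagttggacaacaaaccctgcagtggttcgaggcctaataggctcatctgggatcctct
Il6: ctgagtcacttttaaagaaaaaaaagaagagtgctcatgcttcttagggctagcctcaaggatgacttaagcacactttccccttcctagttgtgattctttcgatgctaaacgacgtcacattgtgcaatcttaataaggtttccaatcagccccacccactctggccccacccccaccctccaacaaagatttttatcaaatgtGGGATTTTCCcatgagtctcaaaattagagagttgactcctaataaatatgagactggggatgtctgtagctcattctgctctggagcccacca
Cxcl1: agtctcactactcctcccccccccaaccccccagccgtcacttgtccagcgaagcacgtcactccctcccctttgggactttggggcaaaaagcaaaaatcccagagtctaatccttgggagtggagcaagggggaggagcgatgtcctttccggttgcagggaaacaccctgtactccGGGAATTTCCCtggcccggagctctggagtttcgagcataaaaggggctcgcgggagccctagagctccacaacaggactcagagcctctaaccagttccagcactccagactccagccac
Cxcl2: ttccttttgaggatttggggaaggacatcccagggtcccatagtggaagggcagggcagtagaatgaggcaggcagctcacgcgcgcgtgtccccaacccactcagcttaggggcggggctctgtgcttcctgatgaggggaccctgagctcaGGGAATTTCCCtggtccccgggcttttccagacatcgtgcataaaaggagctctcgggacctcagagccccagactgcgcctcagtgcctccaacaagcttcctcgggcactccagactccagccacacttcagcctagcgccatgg
Cxcl1 and Cxcl2 carry the same 11 letters, which match the κB consensus on both strands, and their first letter lies 71 bases before the start in Cxcl1 and 97 before it in Cxcl2. In Il6 the κB match begins 44 bases before the start, and the TATAAA match of Il1b begins 31 bases before it. A match describes letters in the window and does not show that a factor was bound.

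The genes lie in few places of the genome. In the coordinates deposited with the counts (build GRCm39, per the submitters' processing notes), Il1b (chr2:129206490-129213059) and Il1a (chr2:129141530-129151892) are neighbours on the minus strand of chromosome 2. Cxcl1 (chr5:91039100-91040974) and Cxcl2 (chr5:91051730-91053797) lie side by side in the CXC cluster of chromosome 5, on which Il6 (chr5:30218112-30224979) lies far away. Ccl3 (chr11:83538670-83540181) and Ccl4 (chr11:83553410-83555509) are adjacent on chromosome 11, which also holds Ccl2 (chr11:81926397-81928279) and Osm (chr11:4186420-4191026), and Tnf (chr17:35418357-35420983) sits on chromosome 17. Genes on the opposite strand overlap Il1b, Il1a, Ccl2 and Ccl3. Over the 10 fresh libraries these partners held 38 reads for Il1b, 113 for Il1a, 0 for Ccl2 and 82 for Ccl3, and the counting is not stated to use strand. Of the 75-base stretches of Cxcl2, 4.57% also occur in Cxcl3, and the other 9 genes shared none with another gene.

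Total counts were 14229123 to 15999234 per fresh library and 21384686 to 29482826 per cultured library. Values are CPM, read counts scaled to library size, after TMM normalization within each experiment. Of 57010 genes, 17229 were tested in the fresh libraries. None of them (0%) passed an adjusted p of 0.05 in edgeR's quasi-likelihood test, while 1626 (9.44%) had an unadjusted p under 0.05 and DESeq2 called 116 of 18364 genes (0.632%). EM-mGC-3 stood apart in its mitochondrial share, 21.85% of counts against 6.756% to 11.13% in the other 9 fresh libraries. Granulosa markers were abundant in every fresh library, summing to between 9829 and 13550 CPM in Con libraries and between 5322 and 17810 CPM in EM libraries, led by Inha, the inhibin α chain.

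All 10 genes passed the filter on low counts in the fresh libraries, and all 10 had a higher fitted level in the EM group. Across all tested genes 48.2% did. Because the genes were chosen with earlier results known, the shares over all tested genes are set beside theirs as description only. Their log2 fold changes had a median of 1.26, against a median of -0.01 over all tested genes, and ran from 0.88 (Tnf and Ccl4) to 2.29 (Il1b). Unadjusted p-values were under 0.05 for 7 of the 10, all of them higher in the EM group (5.22% of tested genes were), but 0 of 10 passed the adjusted threshold in edgeR. DESeq2 called Il1b only. None of the 10 had groups that did not overlap (0.917% of tested genes had every EM library above every Con library). For all 10, however, every EM library lay above the Con median, which held for 11.2% of tested genes. The plot of levels by library shows both features: the points of the EM group are shifted up for each gene, and the highest Con point reaches into them.

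**Figure D1:**
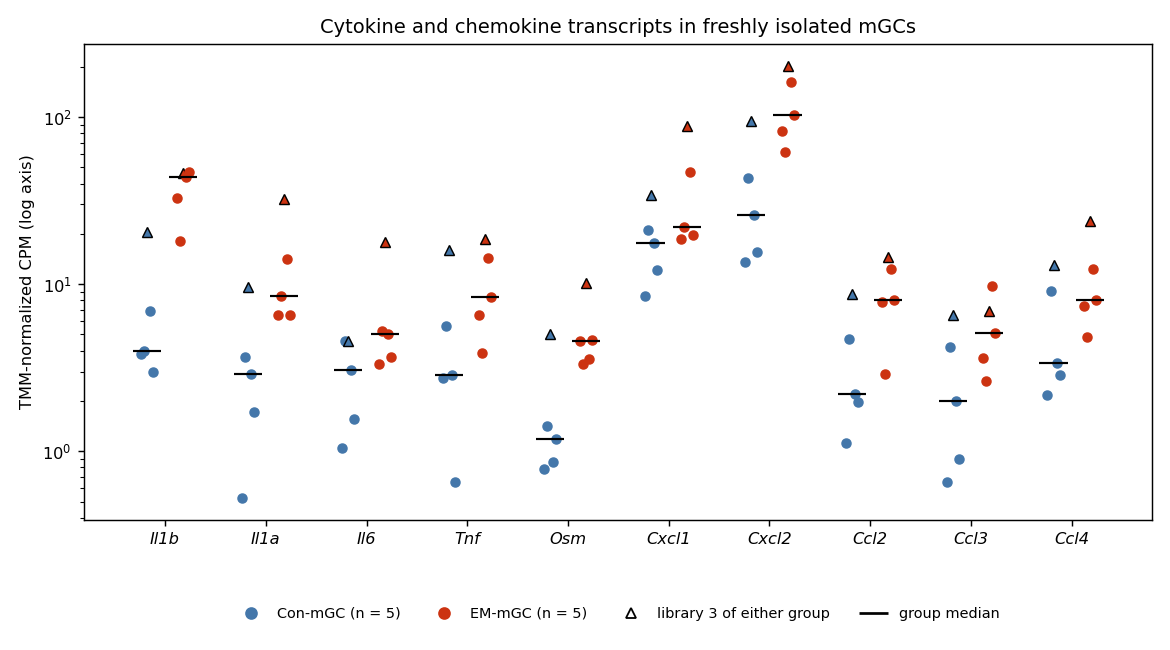
TMM-normalized CPM on a log axis for the 10 genes in the 5 Con-mGC (blue) and 5 EM-mGC (red) libraries, with a bar at each group's median and triangles for library 3 of either group. EM medians lie above Con medians for every gene, and Con-mGC-3 is the highest Con library for 9 of 10.

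The interleukin-1 genes showed the largest difference among the 10. Il1b, the form that needs cutting by caspase-1, was at 3.81, 3.98, 20.6, 6.89 and 2.98 CPM in Con-mGC-1 to Con-mGC-5. The EM libraries held 32.6, 18.1, 46.4, 43.5 and 46.6 CPM in the same order. Con-mGC-3 was the only Con library within the EM range, and 4 of 5 EM libraries were above all Con libraries. Con libraries had a mean of 7.66 ± 7.40 CPM (SD, n = 5) and EM libraries one of 37.4 ± 12.2 CPM (n = 5), and the log2 fold change was 2.29 (SE 0.49) with an unadjusted p of 0.000557 and an adjusted p of 0.348 in edgeR. DESeq2 put the adjusted p at 0.0185 for a log2 fold change of 2.30. Without Con-mGC-3 edgeR gave 3.08 and an adjusted p of 0.0111, so in edgeR the call of Il1b turned on this library, while DESeq2 called it with all 10.

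Il1a, the form that is active without cutting and can act from within or on the surface of cells, was at 0.526, 3.68, 9.63, 2.92 and 1.73 CPM in the Con libraries. It reached 6.55, 8.48, 32.3, 14.2 and 6.55 CPM in the EM libraries. Con-mGC-3 was above 3 of the 5 EM libraries, and EM-mGC-3 was well above the other 4. Group means were 3.70 ± 3.53 and 13.6 ± 10.9 CPM, with a log2 fold change of 1.87 (SE 0.64, unadjusted p = 0.0130, edgeR adjusted p = 0.462). It ranged from 1.27 without EM-mGC-3, where the unadjusted p was 0.0561, to 2.61 without Con-mGC-3.

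Of the cytokines that signal through gp130, Osm had a larger difference than Il6. Osm, which encodes oncostatin M of neutrophils and macrophages, was at 0.789, 1.41, 5.00, 0.862 and 1.19 CPM in the Con libraries. The EM libraries held 4.60, 3.35, 10.2, 3.55 and 4.62 CPM. Apart from Con-mGC-3, every Con library was below every EM library. Means were 1.85 ± 1.78 and 5.26 ± 2.82 CPM, and the log2 fold change was 1.50 (SE 0.52, unadjusted p = 0.0135, edgeR adjusted p = 0.462). Without Con-mGC-3 it was 2.29 with an adjusted p of 0.0488, which made Osm the other gene of the 10, with Il1b, that edgeR then called. Without this library, 46 of 17423 genes (0.264%) were called over all.

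Il6, which cumulus and granulosa cells also make around ovulation, depended on a single EM library. It was at 1.05, 4.60, 4.56, 3.05 and 1.55 CPM in the Con libraries and at 3.34, 5.26, 17.9, 5.05 and 3.65 CPM in the EM libraries. EM-mGC-2, EM-mGC-3 and EM-mGC-4 were above all Con libraries, but EM-mGC-2 and EM-mGC-4, at 5.26 and 5.05 CPM, lay close to the Con maximum of 4.60 CPM. Means were 2.96 ± 1.65 and 7.05 ± 6.14 CPM, and the log2 fold change of 1.24 (SE 0.53, unadjusted p = 0.0371, edgeR adjusted p = 0.516) fell to 0.54 without EM-mGC-3, the library with the high mitochondrial share.

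Tnf, the founding member of its family, had the largest unadjusted p of the 10. The Con libraries held 2.76, 5.58, 16.1, 2.85 and 0.656 CPM, and the EM libraries 6.55, 3.88, 18.6, 14.3 and 8.34 CPM. Only EM-mGC-3 was above Con-mGC-3. Means of 5.60 ± 6.14 and 10.3 ± 5.99 CPM gave a log2 fold change of 0.88 (SE 0.66, unadjusted p = 0.205, edgeR adjusted p = 0.679). It was 1.80 without Con-mGC-3 and 0.56 without EM-mGC-3.

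The neutrophil chemokine Cxcl2 had the highest level of the 10 genes per length of transcript in both groups. It was at 13.5, 42.9, 94.0, 25.8 and 15.6 CPM in the Con libraries and at 82.0, 61.8, 203, 162 and 103 CPM in the EM libraries. All EM libraries were above every Con library except Con-mGC-3, which exceeded EM-mGC-1 and EM-mGC-2. Means were 38.4 ± 33.2 and 122 ± 58.7 CPM, a log2 fold change of 1.67 (SE 0.51, unadjusted p = 0.00630, edgeR adjusted p = 0.430). Without Con-mGC-3 it was 2.32, and the adjusted p of 0.0612 still missed the threshold.

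Cxcl1, the neighbour of Cxcl2 with the same κB letters in its promoter, differed less. It was at 8.48, 21.1, 34.0, 17.6 and 12.2 CPM in the Con libraries and at 18.7, 22.1, 87.9, 46.7 and 19.6 CPM in the EM libraries. EM-mGC-3 and EM-mGC-4 were above all Con libraries, and the other 3 EM libraries lay within the Con range. Means were 18.7 ± 9.85 and 39.0 ± 29.7 CPM, with a log2 fold change of 1.06 (SE 0.47, unadjusted p = 0.0434, edgeR adjusted p = 0.520) that fell to 0.52 without EM-mGC-3.

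The 3 CC chemokines also overlapped between groups. Ccl2, the monocyte attractant, was at 1.12, 4.72, 8.69, 2.19 and 1.97 CPM in the Con libraries and at 7.87, 2.89, 14.5, 12.4 and 7.99 CPM in the EM libraries. EM-mGC-2 was the only EM library within the range of Con-mGC-1, Con-mGC-2, Con-mGC-4 and Con-mGC-5. Its means were 3.74 ± 3.08 and 9.13 ± 4.51 CPM, and its log2 fold change was 1.28 (SE 0.53, unadjusted p = 0.0325, edgeR adjusted p = 0.510). Ccl3, a ligand of CCR1, was at 0.658, 4.23, 6.50, 1.99 and 0.895 CPM in the Con libraries and at 3.62, 2.63, 6.89, 9.76 and 5.10 CPM in the EM libraries. Here EM-mGC-4 was the highest and 3 EM libraries were below Con-mGC-3. Its means were 2.86 ± 2.48 and 5.60 ± 2.83 CPM, with a log2 fold change of 0.97 (SE 0.57, unadjusted p = 0.113, edgeR adjusted p = 0.596). Ccl4, its neighbour in the genome and another attractant of monocytes, was at 2.17, 9.13, 13.0, 3.38 and 2.86 CPM in the Con libraries and at 7.45, 4.86, 24.0, 12.3 and 7.99 CPM in the EM libraries. Only EM-mGC-3 was above Con-mGC-3. Its means were 6.11 ± 4.75 and 11.3 ± 7.57 CPM, and the log2 fold change was 0.88 (SE 0.53, unadjusted p = 0.125, edgeR adjusted p = 0.606) and fell to 0.41 without EM-mGC-3.

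**Figure D2:**
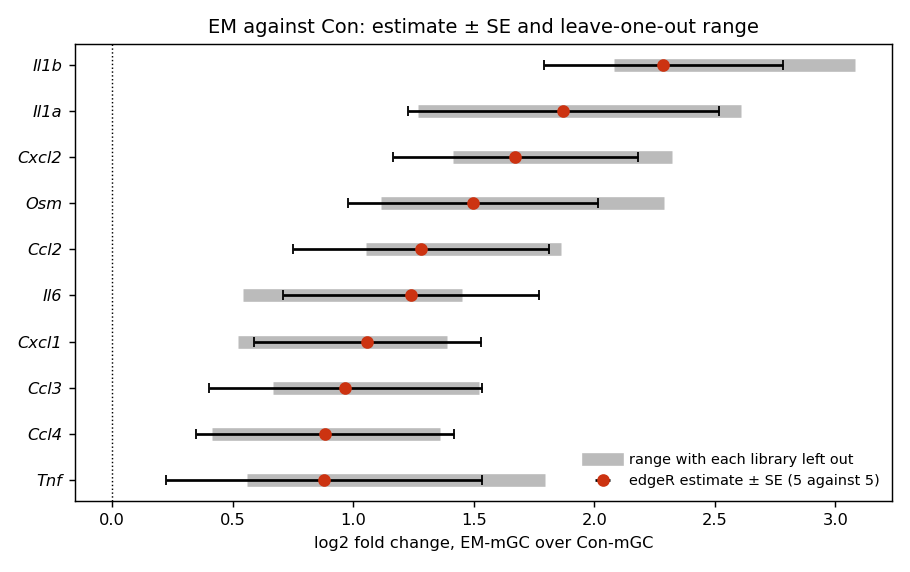
Log2 fold change of EM-mGC over Con-mGC for the 10 genes, as edgeR's estimate (red) with its SE (black) from 5 against 5 libraries, and the range of estimates when each library was left out in turn (grey). All estimates are above 0, the grey ranges of Il1b, Il1a, Cxcl2, Osm and Ccl2 stay above 1, and those of Il6, Cxcl1, Ccl3, Ccl4 and Tnf reach below 1.

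Two-sided exact permutation tests of the difference in mean CPM, which cannot go below 0.00794 with 5 against 5 libraries, gave 0.0159 for Il1b, 0.0238 for Cxcl2, 0.0397 for Il1a and 0.0397 for Osm. They gave 0.0635 for Ccl2, 0.103 for Il6, 0.143 for Ccl3, 0.183 for Cxcl1, 0.222 for Tnf and 0.230 for Ccl4. These are 10 exact tests without adjustment. The 4 genes with the largest fold changes had the 4 smallest p-values, and the other 6 did not reach 0.05.

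Levels of different genes can be compared only per length of transcript, and on the scale of mean CPM per kilobase of exon the CXC chemokines led. Cxcl2 was at 18.6 over Con libraries and 59.2 over EM libraries. In the Con group it was followed by Cxcl1 at 9.96, Ccl4 at 9.26, Il1b at 4.02, Ccl3 at 3.73, Tnf at 3.41, Ccl2 at 3.28, Il1a at 1.87, Il6 at 1.22 and Osm at 0.815. In the EM group Cxcl2 was followed by Cxcl1 at 20.8, Il1b at 19.6, Ccl4 at 17.1, Ccl2 at 8.02, Ccl3 at 7.31, Il1a at 6.89, Tnf at 6.30, Il6 at 2.90 and Osm at 2.32. Il1b stood behind Ccl4 in the Con group and ahead of it in the EM group. Neighbours in either order, apart from Cxcl2 and Cxcl1 in the EM group, had means closer together than the larger of their SDs.

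The share of each gene in the summed reads of the 10 describes their make-up apart from their total level. Il1b took 3.93% of them in Con-mGC-2 (exact binomial 95% interval 3.05 to 4.98) and up to 10.9% in Con-mGC-1 (8.42 to 13.9). In the EM group its share ran from 10.0% in EM-mGC-3 (9.26 to 10.9) to 21.8% in EM-mGC-5 (20.4 to 23.3). Cxcl2 made up 37.5% to 44.3% in Con libraries and 44% to 50% in EM libraries, and Cxcl1 16% to 29.3% against 9.21% to 19%. The shares of all 3 overlapped between groups. They were chosen for description after their values were seen and were not tested, and the intervals cover counting error only.

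The 10 genes varied together from library to library. Con-mGC-3 was the highest Con library for 9 of them (Con-mGC-2 for Il6), Con-mGC-1 the lowest for 8 and Con-mGC-5 for Il1b and Tnf. EM-mGC-3 was the highest EM library for 8 (EM-mGC-4 for Ccl3 and EM-mGC-5 for Il1b), and EM-mGC-2 was the lowest for 7. Summed over the 10 genes, the level was 34.8, 101, 212, 67.5 and 41.7 CPM in the Con libraries and 173, 133, 462, 324 and 213 CPM in the EM libraries. Con-mGC-3 was thus above EM-mGC-1 and EM-mGC-2 and close to EM-mGC-5. As a description, the log2 levels of the 45 pairs of genes correlated over the 10 fresh libraries with Pearson's r between 0.662 (Il1b and Il6) and 0.959, with a median of 0.881. After each group's mean was taken off, r ran from 0.438, again for Il1b and Il6, to 0.963 for Cxcl2 and Ccl3 (median 0.822), and was above 0 for all 45 pairs. All points share their libraries, and with them depth and composition.

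**Figure D3:**
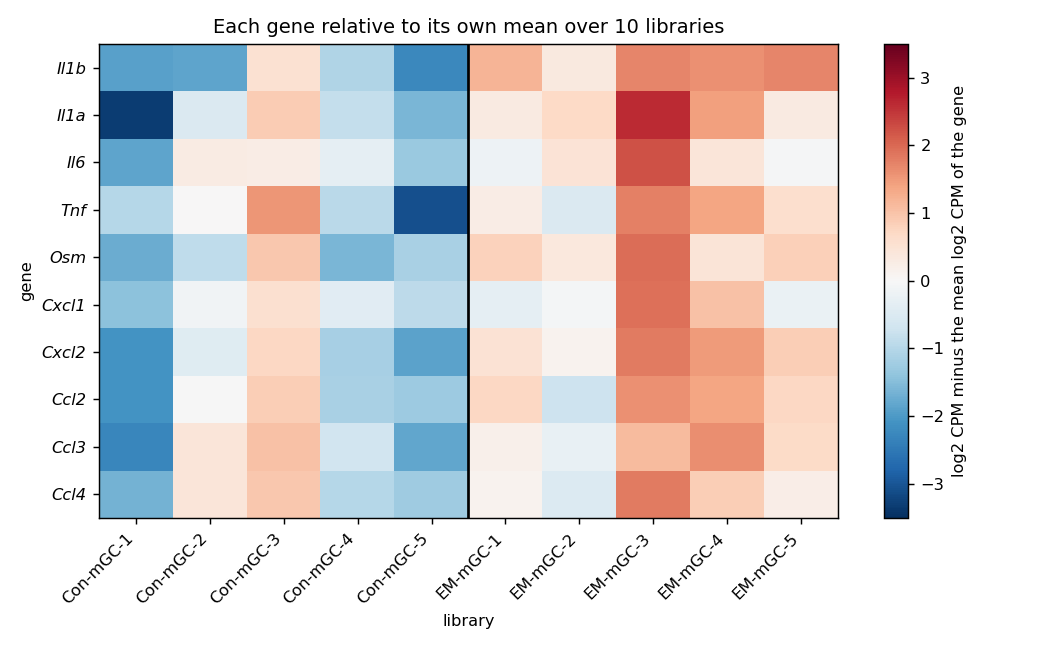
Colour shows, for each gene (vertical) in each fresh library (horizontal), the log2 CPM minus that gene's mean log2 CPM over the 10 libraries, with a line between the Con-mGC and EM-mGC groups. The column of Con-mGC-3 is red for all 10 genes, those of Con-mGC-1 and Con-mGC-5 are blue, and EM-mGC-3 is the darkest red for most genes.

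Leaving out Con-mGC-3 added more calls than leaving out any other fresh library. All 10 genes then had an unadjusted p under 0.05 (6.28% of tested genes were below it and higher in the EM group), and 4 of them, Il1b, Il1a, Osm and Cxcl2, no longer overlapped between groups (2.76% of tested genes did so with higher EM values). Without EM-mGC-3, 3 of 10 had an unadjusted p under 0.05 (4.41% of tested genes, higher in the EM group). Leaving out both libraries at once, an alternative chosen after the data were seen, left 8 of 10 under that p (6.03% of tested genes, higher in the EM group). Il1b and Osm were again called, with adjusted p-values of 0.0276 and 0.0436 in edgeR, as were 23 of 17321 tested genes (0.133%). The estimate stayed above 0 for every one of the 10 genes without any single fresh library.

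Markers of neutrophils, of macrophages and of leukocytes in general were also higher on average in EM libraries, while those of lymphocytes and mast cells were lower. The 20 neutrophil markers summed to 58.2 to 145 CPM in Con libraries and 116 to 369 CPM in EM libraries, with 20 of 20 detected. Of the 14 that were tested, 13 had a log2 fold change above 0 and 11 an unadjusted p under 0.05, with a median log2 fold change of 2.25. Over all tested genes, 48.2% were above 0 and 5.22% had such a p with higher EM values. S100a8, which with S100a9 forms calprotectin of the neutrophil cytosol, was at 1.88 ± 3.01 and 20.4 ± 14.9 CPM, and S100a9 at 6.24 ± 7.71 and 47.2 ± 31.9 CPM (n = 5 each). The most abundant gene of the list was Hdc, which encodes the enzyme that makes histamine, at 35.5 and 44.2 CPM. Ltf was the tested neutrophil marker with a log2 fold change below 0 (-0.70), at 19.8 ± 8.27 and 12.1 ± 5.77 CPM. Both are part of the summed neutrophil levels. Macrophage markers summed to 320 to 567 and 372 to 987 CPM, led by Lyz2 at 125 and 276 CPM, and 15 of 18 had a log2 fold change above 0, with a median of 0.36. Adgre1 and Csf1r, which define macrophages, averaged 13.3 and 45.4 CPM over Con libraries, and 13.6 and 47.9 CPM over EM libraries. General leukocyte markers summed to 113 to 277 and 166 to 396 CPM, with 12 of 12 above 0 and a median of 0.91. No marker of these 3 lists passed the adjusted threshold in edgeR without a block, and 1 leukocyte marker passed it with the replicate number as a block. Of the markers tested in edgeR, DESeq2 called 7 neutrophil, 2 macrophage and 3 general leukocyte markers. Over all its genes DESeq2 called 0.632%.

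Con-mGC-3 was the highest Con library in all 3 lists, with 145 CPM of neutrophil, 567 CPM of macrophage and 277 CPM of leukocyte markers. Its summed granulosa level of 9992 CPM lay within the range of the other Con libraries. Granulosa sums varied more in the EM group, at 9064, 17810, 9891, 5322 and 9704 CPM in EM-mGC-1 to EM-mGC-5. The 10 genes summed to 173, 133, 462, 324 and 213 CPM in these libraries. In EM-mGC-3 the macrophage and leukocyte sums of 987 and 396 CPM were the highest of the group, and the neutrophil sum of 193 CPM was its median. The red blood cell markers of that library summed to 17420 CPM, against 2647 to 6151 CPM in the other 9 fresh libraries. Lymphocyte markers summed to 14.2 to 29.1 CPM in Con libraries and 11.8 to 18.3 CPM in EM libraries, and 9 of 10 had a log2 fold change below 0. Other lists were lower in the EM group. Theca and stroma markers summed to 1829 to 1962 CPM in Con libraries and 987 to 1671 CPM in EM libraries, without overlap, and 3 of 9, the collagen genes Col1a1, Col1a2 and Col3a1, had an unadjusted p under 0.05. Endothelial markers summed to 183 to 213 and 105 to 186 CPM, and 8 of 8 had a log2 fold change below 0, 2 of them (Tek and Cdh5) with such a p. Over all tested genes 9.44% had such a p, in either direction. The 6 mast cell markers, all under the filter on low counts, summed to 1.61 to 5.83 and 0.329 to 1.31 CPM, again without overlap. DESeq2 called Col1a1 and the mast cell protease genes Cpa3 and Mcpt4 lower, and edgeR called no gene of these 3 lists. Dendritic cell markers summed to 61.6 to 184 and 54.0 to 172 CPM, and 0 of the 6 tested had an unadjusted p under 0.05. The part of these cells in the cytokine levels was not tested. In RNA from whole isolates, more cells of a type and more RNA per cell cannot be told apart.

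**Figure D4:**
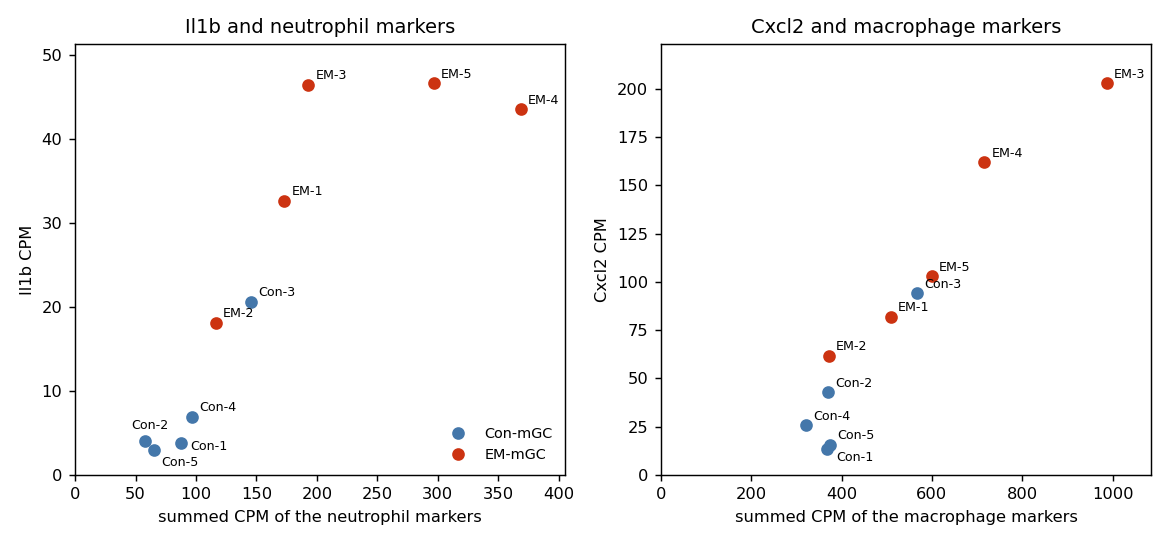
Each point is a fresh library, with its summed CPM of neutrophil markers and its Il1b CPM in the left panel, and its summed CPM of macrophage markers and its Cxcl2 CPM in the right panel. Con-mGC-3 lies among the EM libraries in both panels, and the other 4 Con libraries lie below all EM libraries on the vertical axis.

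The genes whose log2 levels were most like each of the 10 over the 10 fresh libraries, out of 16127 genes with a mean of at least 1 CPM, are named here by that likeness alone. For Il1b they were Chil1, a chitinase-like protein (Pearson's r = 0.978), Retnlg (0.974), a resistin-like protein of neutrophils, and Cxcr2 (0.974), the receptor of CXCL1 and CXCL2. Cxcl2 was closest to the macrophage lectin Clec4e (0.986), Ccl9 (0.985) and Nfkbia (0.983), which encodes the NF-κB inhibitor IκBα. Il1a was closest to Alox5ap (0.986), which is needed for leukotriene synthesis, Hilpda (0.972) and Cd300ld (0.971). Ccl2 was closest to Nfkbiz, Pim1 and its paralog Ccl7 (0.970, 0.970 and 0.968), and the genes closest to Tnf included Lilrb4a (0.965) and Tnfaip3 (0.963). Osm was closest to Pmaip1 (0.979), Cd44 (0.971) and Cd48 (0.970), a leukocyte surface protein. Ccl3 was closest to Pde1a (0.973), Itgb1 (0.971) and Nlrp3 (0.966), the sensor of an inflammasome, and Ccl4 to Smim26 (0.982), Tnfaip3 (0.968) and again Nlrp3 (0.967). Il6 was closest to the importin Kpna1 (0.985) and Cxcl1 to the proton pump subunit Atp6v1a (0.973), both expressed in most cell types, followed by Rpl35a (0.957) and Lin7c (0.954) for Il6 and by Eif5 (0.969) and 1810037I17Rik (0.967) for Cxcl1. With each group's mean taken off, r for the genes named here stayed between 0.904 (Cxcr2) and 0.979 (Kpna1). These values are descriptions over shared libraries.

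Among 30 other chemokines, 20 were tested, of which 14 had a log2 fold change above 0 (48.2% of all tested genes), with a median of 0.62. An unadjusted p under 0.05 was found for 6, all higher in the EM group (5.22% of tested genes). Ccl6 and Ccl9, chemokines of myeloid cells in the same cluster of chromosome 11 as Ccl3 and Ccl4, led with means of 15.4 ± 16.6 and 99.3 ± 63.9 CPM for Ccl6 (log2 fold change 2.69, SE 0.60, edgeR adjusted p = 0.348). Ccl9 was at 8.68 ± 9.01 and 43.2 ± 30.9 CPM (2.31, SE 0.62, edgeR adjusted p = 0.376). The most abundant chemokine was Cxcl12, the ligand of CXCR4, at 71.3 ± 19.8 and 107 ± 54.4 CPM, with an unadjusted p of 0.113 in edgeR. None passed the adjusted threshold in edgeR, and DESeq2 called Ccl6 and Cxcl3, the paralog of Cxcl2.

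On the receptor side, 15 of 22 chemokine receptors were tested and 6 had an unadjusted p under 0.05 with higher EM values, 1 with lower. Over all tested genes, 5.22% had such a p with higher EM values and 9.44% in either direction. Cxcr2 averaged 0.848 ± 0.885 CPM over Con and 4.62 ± 1.98 CPM over EM libraries (log2 fold change 2.44, SE 0.57, edgeR adjusted p = 0.348). Its groups did not overlap, as for 0.917% of tested genes with higher EM values. The most abundant was Ccrl2, which binds a chemoattractant without signalling, at 33.2 ± 22.9 and 69.8 ± 26.9 CPM. Of 10 cytokine receptors and antagonists, 3 had an unadjusted p under 0.05, and Il1r2, the decoy receptor of IL-1 that neutrophils carry, was at 2.16 ± 2.11 and 7.41 ± 2.89 CPM (1.77, SE 0.52, edgeR adjusted p = 0.418). Il6ra, the receptor chain for IL-6, was at 5.26 ± 0.627 and 8.88 ± 3.68 CPM. Il6st, which encodes gp130, was at 150 ± 18.5 and 141 ± 6.77 CPM, with an unadjusted p of 0.399 in edgeR. No receptor passed the adjusted threshold in edgeR, and those that DESeq2 called included Ccr1, Cxcr2 and Il1r2. Cxcr2 and Il1r2 also belong to the neutrophil list, and Ccr2 to the macrophage list, as does Cd14 of the inflammasome list.

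The lists of signalling genes and other cytokines had median log2 fold changes of 0.15, 0.31, 0.09 and 0.14, in the order given below, against 1.26 for the 10 genes. Single genes differed more, among them Cd14 (log2 fold change 1.84) and Il36g (2.54). In the 4 lists that follow, every gene with an unadjusted p under 0.05 was higher in the EM group. Over all tested genes, 1626 (9.44%) had such a p, and 899 (5.22%) had it with higher EM values. Of 24 NF-κB genes 19 had a log2 fold change above 0, with a median of 0.15, and 5 an unadjusted p under 0.05, led by the adhesion molecule Vcam1 (20.5 ± 5.67 and 34.8 ± 11.8 CPM) and the feedback inhibitor Nfkbia (51.1 ± 23.7 and 98.9 ± 33.8 CPM). Of 17 inflammasome and Toll-like receptor genes 14 were above 0 and 5 had such a p, led by Cd14, a co-receptor for bacterial lipopolysaccharide that monocytes carry (16.6 ± 8.94 and 59.3 ± 37.9 CPM), and the adaptor Myd88 (19.8 ± 1.34 and 25.7 ± 1.88 CPM). Of 16 JAK and STAT3 pathway genes 11 were above 0 and 3 had such a p, among them Socs3, the feedback inhibitor of gp130 signalling (27.0 ± 5.87 and 51.6 ± 16.4 CPM, log2 fold change 0.93, SE 0.21, edgeR adjusted p = 0.348), and the kinase Pim1 (25.7 ± 12.4 and 42.1 ± 12.6 CPM). Of 39 other cytokines 22 were tested and 3 had such a p, among them Il23a (1.08 ± 0.203 and 1.96 ± 0.455 CPM) and Il36g (0.649 ± 0.979 and 3.82 ± 2.55 CPM). The most abundant genes of these lists, Tnip1, Irak1, Jak1 and Csf1, had unadjusted p-values of 0.641, 0.682, 0.143 and 0.403 in edgeR. No gene of the 4 lists passed the adjusted threshold in edgeR, and DESeq2 called Cd14 and Socs3.

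In cultured mGCs 9 of the 10 genes were at or near 0 reads. Cxcl1 was the exception, with 208 to 464 reads per library. Il6 had 2 to 8 reads per library, 19 in all PBS libraries together and 12 in all EET libraries. Ccl2 had 6 reads in either arm, Il1a 2 in PBS and 5 in EET, and Osm 1 in each. Il1b had 1 read and Tnf had 1, both in a PBS library, Cxcl2 had 2 in a PBS library, and Ccl4 had 1 in an EET library. Ccl3 had 0 reads in all 6, which allows up to 3 reads, or 0.102 to 0.142 CPM, in each library for counting error alone. These 9 genes did not pass the filter on low counts, so an effect of 14,15-EET on them was not detectable at this depth.

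Cxcl1, the only one of the 10 that could be tested in culture, was at 9.87, 11.3 and 16.7 CPM in the PBS libraries and at 11.7, 11.2 and 10.4 CPM in the EET libraries. The EET values lay within the PBS range. Means were 12.6 ± 3.60 CPM (n = 3) and 11.1 ± 0.640 CPM (n = 3), with a log2 fold change of -0.19 (SE 0.16, unadjusted p = 0.253, edgeR adjusted p = 0.660), while 184 of 15050 tested genes (1.22%) were called in that comparison. PBS-3 decided the direction, since the estimate was 0.070 without it. Without PBS-1 it was -0.33 with an unadjusted p of 0.0339 in edgeR.

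The fresh and cultured tables were normalized separately and come from different experiments, so their levels are set side by side without a test. Fresh EM libraries held 18.1 to 46.6 CPM of Il1b and 61.8 to 203 CPM of Cxcl2, and cultured libraries at most 0.0385 CPM of Il1b and 0.0769 CPM of Cxcl2. Cxcl1 was at 18.7 to 87.9 CPM in fresh EM libraries, at 8.48 to 34.0 CPM in fresh Con libraries and at 9.87 to 16.7 CPM in culture. Neutrophil markers were low in culture as well: 7 of 20 had no read, among them S100a8, S100a9, Retnlg and Ly6g, and the list summed to 2.52 to 3.64 CPM. Macrophage markers summed to 17.9 to 21.15 CPM in PBS and 20.5 to 31.3 CPM in EET libraries. General leukocyte markers summed to 6.31 to 10.6 and 7.23 to 8.94 CPM. Granulosa markers summed to 4748 to 5240 CPM in PBS and 4315 to 4681 CPM in EET libraries, without overlap. Of 8 granulosa markers tested, 4 had an unadjusted p under 0.05 in edgeR, all lower with EET. Over all tested genes 12.4% had such a p, in either direction. After adjustment edgeR called 1 granulosa marker (1.22% of tested genes). The part of these cells in the low cytokine levels was not tested.

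**Figure D5:**
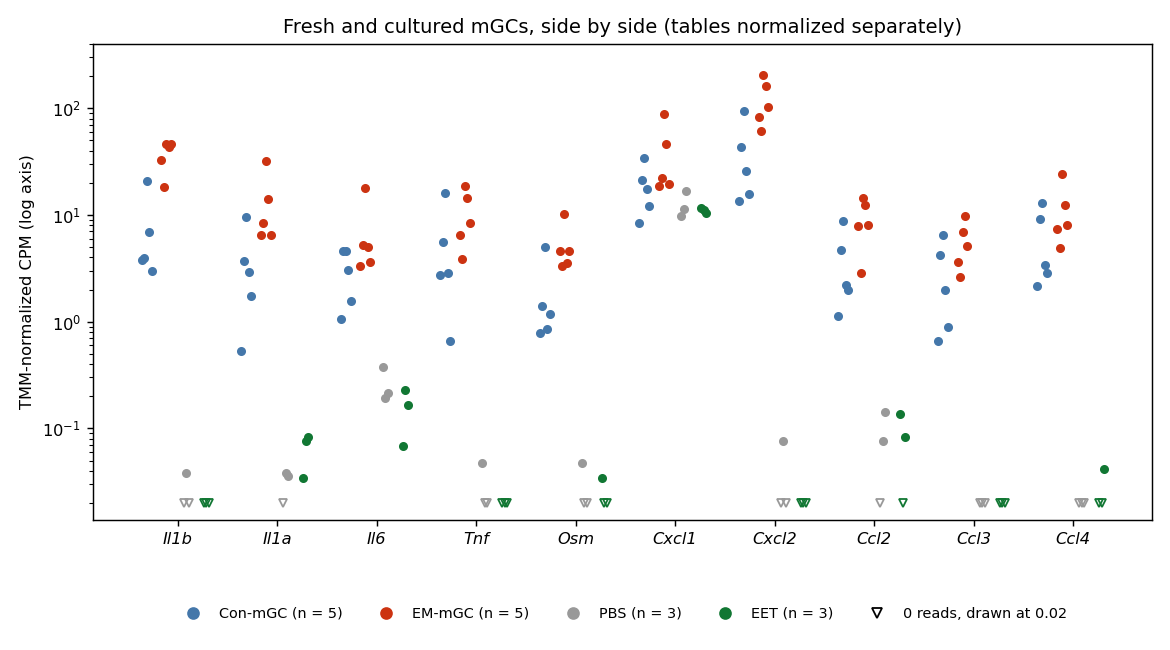
TMM-normalized CPM on a log axis for the 10 genes in fresh Con-mGC and EM-mGC libraries and in cultured PBS and EET libraries, with open triangles at 0.02 for libraries with 0 reads. Cxcl1 is the only gene at the level of several CPM in culture, between 9.87 and 16.7 CPM.

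Of the other genes of these pathways, Cxcl12 was the only one that edgeR called after 14,15-EET without a term for pairs. It was at 301, 252 and 235 CPM in the PBS libraries and at 351, 375 and 379 CPM in the EET libraries. The arms did not overlap, as for 8.48% of tested genes with higher EET values. Cxcl12 rose from 263 ± 34.2 to 368 ± 15.1 CPM (n = 3 each), with a log2 fold change of 0.49 (SE 0.08, edgeR adjusted p = 0.00942). The adjusted p was 0.0713 without EET-2 and 0.0925 without EET-3. Of 30 other chemokines 9 were tested in culture, 7 of them with a log2 fold change above 0. Cx3cl1, the membrane-bound chemokine fractalkine, was at 54.3 ± 3.29 and 65.9 ± 3.24 CPM (0.28, SE 0.06, edgeR adjusted p = 0.0511, and 0.0129 with the replicate number as a block), and Ackr3, a scavenger receptor of CXCL12, at 9.55 ± 4.34 and 5.58 ± 0.549 CPM (edgeR adjusted p = 0.185). DESeq2 called Cxcl12, Cx3cl1 and Ackr3 of these lists, and Ccr10, the receptor with the next smallest unadjusted p (0.317 in edgeR), was at 1.38 ± 0.146 and 1.63 ± 0.213 CPM.

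In the JAK and STAT3 list 15 of 16 genes were tested, and 4 had an unadjusted p under 0.05, all higher with EET (6.03% of tested genes were). Stat5b was at 299 ± 5.67 and 345 ± 6.62 CPM (log2 fold change 0.21, SE 0.05, edgeR adjusted p = 0.0505). Stat5a was at 675 ± 21.9 and 778 ± 22.7 CPM (edgeR adjusted p = 0.0791), and Cish, a feedback inhibitor that STAT5 induces, at 13.9 ± 1.26 and 18.2 ± 0.778 CPM (0.39, SE 0.09, edgeR adjusted p = 0.0537). None of these 3 passed the adjusted threshold in edgeR without a block. With the replicate number as a block, Stat5b, Stat5a and Cish passed it (edgeR adjusted p = 0.0310, 0.0439 and 0.0358), and DESeq2, which called 2.5% of its genes, called all 3. Among 22 NF-κB genes, 10 inflammasome genes, 17 other cytokines and 8 cytokine receptors tested, edgeR called 0 and DESeq2 called 0. Those with an unadjusted p under 0.05 were Il7 (12.6 ± 2.20 and 10.3 ± 0.529 CPM) and Lifr (11.6 ± 1.08 and 9.35 ± 1.07 CPM), both lower with EET. The most abundant cytokine of the list, Clcf1, was at 71.5 ± 9.49 and 64.1 ± 4.71 CPM, and the TNF receptor Tnfrsf1a at 115 ± 4.43 and 110 ± 4.64 CPM. The smallest unadjusted p-values among NF-κB genes were those of Tnip1 (0.0629) and Nfkbid (0.0729), and among inflammasome genes those of Cd14 (0.136) and Irak2 (0.219), all from edgeR. The gp130 gene Il6st was at 126 ± 3.13 and 129 ± 2.47 CPM.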

How the data were processed

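RNA of 16 libraries was sequenced on an Illumina NovaSeq instrument with 150 bp reads from both ends after a stranded poly(A) preparation. The authors deposited raw read counts per Ensembl gene, made with featureCounts, in a table for each experiment. The submitters' processing notes name fastp, HISAT2, StringTie and GRCm39, without roles. How strand and reads matching several genes were handled is not given in the sources used here. No column of the tables was left unused (0 columns). Replicates are those of the labels, and they differed by more than sampling noise (edgeR's common coefficient of variation between libraries was 0.249 in fresh and 0.062 in cultured mGCs). Per the study's methods, cultured cells of 6 mice were split between the arms and gave paired biological replicates. How many mice stand behind each library is not spelled out.

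From the counts, genes were kept with filterByExpr, normalized by TMM and compared within each experiment by the quasi-likelihood test of edgeR 4.0.16 in R 4.3.3, with Benjamini-Hochberg adjustment over all genes tested and a threshold of 0.05. The authors applied DESeq2, here an alternative in version 1.42.0. SEs are the log2 fold change over the root of F. Single genes were also compared by exact permutation tests. Lengths came from exons of GENCODE M21 (GRCm38), and no coordinate was moved between builds. The tests were checked on simulated counts in which 200 genes were changed by a log2 fold change of 2, up or down. Each gene was drawn independently. The 10 genes had changes of other sizes and varied together, so the counts of false calls do not carry over to them. In simulated fresh libraries edgeR made 181 calls, 2 of them false, and DESeq2 made 217, 30 of them false. In simulated cultured libraries edgeR made 214 calls, 21 of them false, and DESeq2 made 209, 20 of them false. Alternatives were DESeq2, normalization by RLE or by upper quartiles, dropping the filter or asking for 10 counts in each library, the replicate number as a block, and leaving out each library in turn. Leaving out Con-mGC-3 and EM-mGC-3 together, and the alternatives for Cxcl12, were chosen after seeing the data.

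Named genes were the 10 in each comparison and, from each list of receptors, chemokines, cytokines and signalling genes, those called or otherwise the 2 with the smallest unadjusted p, plus the most abundant. For each of the 10, the 3 tested genes of at least 1 CPM with the highest Pearson's r over the fresh libraries were taken. Of marker lists, the most abundant gene and those at 0 were named. S100a8, S100a9, Ltf, Adgre1, Csf1r and the genes that only DESeq2 called were named after their values were seen. Some genes that these rules select are not reported here. The members and lists were chosen with earlier results of these data known. Depth was 14229123 to 15999234 counts per fresh and 21384686 to 29482826 per cultured library. Intervals and floors cover counting error only.

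Whether equal replicate numbers mark pairs was checked by taking off each group's mean and correlating libraries of equal number. In culture r was 0.0856, 0.159 and -0.0434 for numbers 1, 2 and 3. The sources used here do not say that equal numbers mark the pairs, so the fit without the block was kept. Blocked values are given for the pathway genes whose call the block changed. Between EET and PBS, 1 macrophage marker and 1 theca and stroma marker also passed edgeR's adjusted threshold only with the block.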

Additional observations from a re-analysis of the deposited data

Results flagged for a closer look

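In 20 groups of 5 fresh libraries (10 genes in either group), the highest or lowest library was compared with the spread of its group by Dixon's test, which flags about 1 in 20 groups by chance, and 4 values stood out. Con-mGC-3 stood above the other 4 Con libraries for Il1b, at 20.6 CPM against 2.98 to 6.89 CPM, and for Osm, at 5.00 CPM against 0.789 to 1.41 CPM. EM-mGC-3 stood above the other 4 EM libraries for Il6, at 17.9 CPM against 3.34 to 5.26 CPM, and for Osm, at 10.2 CPM against 3.35 to 4.62 CPM. All 4 values belong to the same 2 libraries, and the genes are not independent of each other.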

How the results depend on the processing

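The direction of the EM against Con difference was above 0 for the 10 genes in every alternative in which they were tested, and 9 of 10 were tested when at least 10 counts were asked of every library. Genes called in that comparison numbered 0 as reported, 116 with DESeq2, 4 without a filter on low counts, 2 with the replicate block, 0 to 46 with a library left out and 23 without both Con-mGC-3 and EM-mGC-3, a choice made after seeing the data. Of the 10 genes, 1 was called with DESeq2 (Il1b), 0 to 2 with a library left out and 2 without both libraries (Il1b and Osm), and 0 with the replicate block. Leaving out EM-mGC-1 gave 1 called gene, which is none of the 10. Il1b was called at log2 fold changes of 2.30 (DESeq2), 3.08 (without Con-mGC-3) and 3.005 (without both), and Osm at 2.29 (without Con-mGC-3) and 1.92 (without both). The adjusted p of Il1b ran from 0.0111 to 0.783 over its alternatives and that of Osm from 0.0436 to 0.862.

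Genes called between EET and PBS numbered 184 as reported, 322 with DESeq2, 662 without a filter, 341 with the replicate block and 48 to 436 with a library left out, and 0 of the 10 genes were called in any of them. Cxcl1, at -0.19 as reported, ran from -0.33 (without PBS-1) to 0.070 (without PBS-3). Cxcl12 kept its direction in 12 alternatives and was no longer called without EET-2 or EET-3. With the block, Cx3cl1, Stat5b, Cish and Stat5a passed the adjusted threshold of edgeR (0.0129, 0.0310, 0.0358 and 0.0439), and the methods describe pairs without saying that equal numbers mark them. Causes of these shifts were not tested. Low counts limit the cultured values of all of the 10 genes but Cxcl1.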
